A study of Mus musculus with 16 samples.

Results

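NRF2, encoded by Nfe2l2, is a transcription factor that switches on genes of the antioxidant and detoxification response. KEAP1 (Keap1) normally holds it for degradation, and oxidants or electrophiles release it. The autophagy receptor p62 (Sqstm1) can bind KEAP1 and so free NRF2, and Sqstm1 is itself an NRF2 target. In macrophages this response runs alongside inflammatory signalling from the LPS receptor. The 9 genes described here are Nfe2l2, Keap1, Sqstm1 and 6 classical targets, Gclc, Gclm, Txnrd1, Srxn1, Hmox1 and Nqo1. They were measured by 11 probes, which are all the non-control probes of the array that carry one of those 9 names, out of 55681 such probes in all.

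The RAW264.7 cells used are a mouse tumour line with macrophage properties, and the labels name no engineered allele. Cultures in low serum received cordycepin (3'-deoxyadenosine, a polyadenylation inhibitor) at 20 μM or the DMSO vehicle, and 60 min later LPS at 1 μg/ml for 60 min or nothing, so all had 120 min of cordycepin or vehicle. The 4 conditions, all of which contain the vehicle, are called DMSO and LPS+DMSO for cells without cordycepin, and cordycepin and LPS+cordycepin for cells with it. Each had 4 replicates from separate days, with 1 one-colour array per culture (16 arrays). These cells are a single line, and other macrophages were not analysed here.

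Values are log2 signals after scaling of each array. Levels of different probes cannot be set against each other, so only differences between conditions are described. In bulk RNA, fewer expressing cells and less RNA per cell cannot be told apart. All 9 macrophage markers examined, among them Cd68, Csf1r and Itgam, were well above background on all 16 arrays. None of 8 fibroblast and epithelial markers passed the detection filter, whereas Cd3e and Cd4 (T cells) and Cd79a (B cells) did. Cd79a was 2.64 higher in LPS+cordycepin than in LPS+DMSO (SE 0.31, adjusted p = 1.19e-05) while Ms4a1 and the T cell marker Cd3g did not pass the filter. The part of such signals in the results was not tested. Depending on the array, 37.1% to 51.2% of spots exceeded background clearly by the scanner software's own flag, which is what "well above background" means here.

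Sqstm1 has a pair of probes, and the results turn on where they lie. One lies at chr11:50015985-50016044 (mm9, minus strand) and is called the coding probe, because it holds the bases that encode the part of p62 that binds KEAP1. These bases are in capitals:
Sqstm1 coding probe: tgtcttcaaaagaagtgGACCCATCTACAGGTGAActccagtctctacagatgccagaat
The other lies at chr11:50012868-50012927, 3057 bases further towards the 3′ end of the gene, and is called the 3′ probe. The file annotates it with an Ensembl transcript of Sqstm1 rather than the RefSeq transcript named for the coding probe. No mm9 annotation was used here, so whether the 3′ probe lies in an untranslated region or in a longer isoform was not settled. Both Hmox1 probes carry the same RefSeq transcript and lie 3350 bases apart (mm9, plus strand). They are called the 5′ probe (chr8:77620797-77620856) and the 3′ probe (chr8:77624207-77624266).

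NRF2 acts by binding antioxidant response elements with small MAF proteins. The core of this element, TGACNNNGC on either strand, was searched in 300-base promoters of RefSeq (GRCm38.p6), which run from 250 bases before to 50 bases after a gene's start. It was found in 4 of the 9 promoters listed for 7 of the genes, and in 12.4% of all 32851 promoters. The matches belong to Nfe2l2, Gclm, Txnrd1 and Srxn1, and none was found in these windows of Keap1, Sqstm1 or Nqo1. Hmox1 and Gclc have no entry. The 60-base stretches below show the matches that lie before the start, in capitals, because these genes are read out side by side below. The Srxn1 core match lies after its start, so its stretch shows in capitals the AP-1 type letters TGACTCA, printed from the opposite strand. That motif was found in 5.20% of all promoters and among the 9 only in Srxn1. Srxn1 holds it at 102 to 96 and at 45 to 39 bases before its start, and the stretch shows the latter. Letters that fit both motifs occurred in no match of these genes.
Nfe2l2 (chr2:75704854-75704913, minus strand): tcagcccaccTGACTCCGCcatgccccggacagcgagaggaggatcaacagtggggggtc
Gclm (chr3:122245398-122245457, plus strand): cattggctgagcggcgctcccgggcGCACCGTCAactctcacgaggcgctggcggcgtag
Txnrd1 (chr10:82859089-82859148, plus strand): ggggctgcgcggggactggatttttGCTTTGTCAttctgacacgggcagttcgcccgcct
Srxn1 (chr2:152105454-152105513, plus strand): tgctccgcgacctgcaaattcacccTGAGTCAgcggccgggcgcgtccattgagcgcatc
The Nfe2l2 match lies 240 to 232 bases before the start, that of Gclm 134 to 126 and that of Txnrd1 92 to 84. A match is a description of letters and not a bound site.

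Before any comparison, DMSO replicate 2 stood apart. In 6 of the 10 probes that passed the detection filter its signal was at least 2-fold above the median of the other 3 DMSO arrays, namely both probes of Hmox1 and of Sqstm1, and Gclm and Srxn1. Among all probes that passed, 3.66% were. For the Sqstm1 coding probe it was 15.01 against a mean of 13.05 on the other 3, a 3.89-fold difference. Of 42 other NRF2 targets tested, 6 (14.3%) were at least 2-fold above on that array. DMSO replicate 4 was the second highest of the 4 for the same 6 probes. Nfe2l2, Keap1, Gclc and Txnrd1 did not show the pattern. LPS+cordycepin replicate 4 was low in both Hmox1 probes. Several results that rest on these arrays are given with and without them, but not all, and correlations are given only with them. Both arrays were singled out on the values of these same probes. Leaving out DMSO replicate 2 lowers the DMSO mean and spread of the 6 probes by construction. Passes gained without it are therefore not independent evidence, and the shares over all probes do not correct for this choice.

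**Figure D1:**
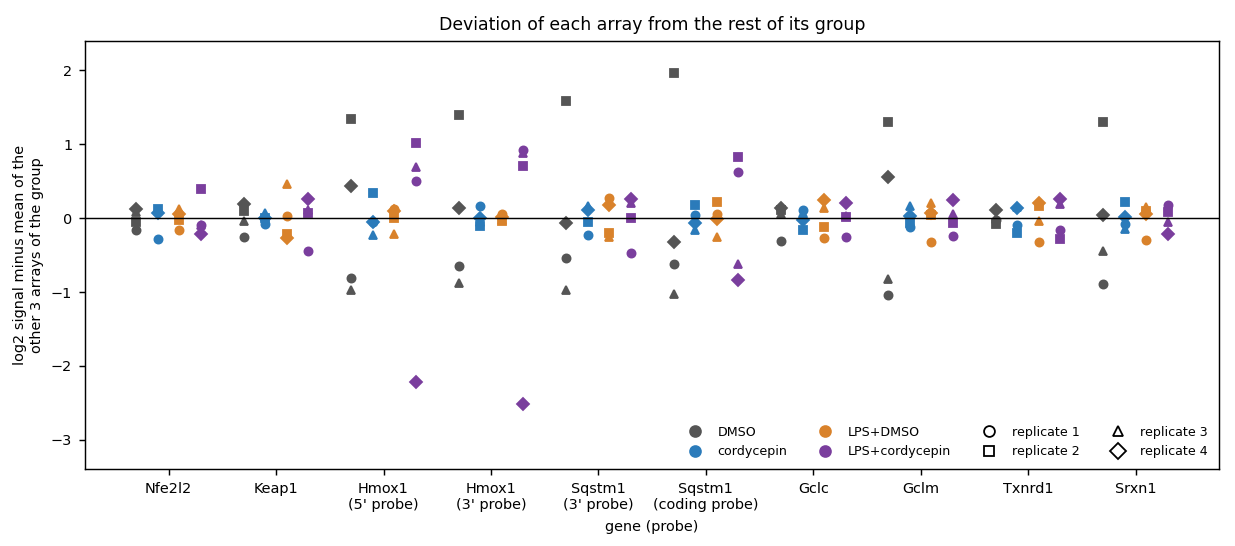
Each point is 1 array, as its log2 signal minus the mean of the other 3 arrays of its condition (y axis), for the 10 probes tested (x axis); colour gives the condition and shape the replicate. DMSO replicate 2 (grey squares) lies more than 1 above the mean of the other 3 for Hmox1, Sqstm1, Gclm and Srxn1. LPS+cordycepin replicate 4 (purple diamonds) lies more than 2 below the mean of the other 3 for Hmox1.

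The response to LPS alone was a rise of Nfe2l2, a fall of Keap1 and a rise of the Sqstm1 3′ probe. Of the 10 probes tested, 3 passed an adjusted p under 0.05 (limma), 2 of them upwards, and 14.4% of all 21598 probes tested passed it. The Sqstm1 3′ probe was the only one that also changed by at least 2-fold, which 4.86% of all probes did. The median change over the 10 probes was 0.11, against -0.04 over all probes. When DMSO replicate 2 was left out, 5 of the 10 passed (14.9% of all probes), now with the Sqstm1 coding probe and Srxn1 among those that rose, and 2 of them reached 2-fold (4.75%). The median change over the 10 was then 0.27, with -0.04 over all probes. LPS+DMSO and DMSO did not overlap for 2 of the 10 probes, against 18.7% of all probes. Sqstm1 is among the genes that the study chose on these samples, so its changes are not independent evidence. The study's gene ontology analysis took the genes that cordycepin lowered most under LPS, a comparison described below.

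Cordycepin alone was followed by lower Nfe2l2 and Gclc. Of the 10 probes 2 passed an adjusted p under 0.05, both downwards, against 16.7% of all probes. None of the 10 was called, that is, passed with at least a 2-fold change, against 6.63% of all probes. Groups did not overlap for 3 probes, against 22% of all. The median change was -0.38, and 0.04 over all probes. Without DMSO replicate 2 it was -0.23, with 0.04 over all probes, and 3 of the 10 passed (16.6% of all probes). One of these, the Sqstm1 3′ probe, rose by more than 2-fold (6.63%).

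Under LPS, cordycepin lowered Nfe2l2, Srxn1 and the Sqstm1 coding probe and raised the Sqstm1 3′ probe. The study chose its gene ontology list on falls in this same comparison, so the fall of Sqstm1 is not independent evidence. With 1 probe higher and 3 lower, 4 of the 10 passed in LPS+cordycepin against LPS+DMSO, compared with 20.2% of all probes. Of these 1 rise and 2 falls reached 2-fold, compared with 8.73% of all probes. Groups did not overlap for 5 probes, against 23.5% of all. The median change was -0.39, and 0.04 over all probes.

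In the presence of cordycepin, LPS raised Nfe2l2, the Sqstm1 3′ probe and Txnrd1. In LPS+cordycepin against cordycepin 3 of 10 passed, none of them downwards, and 7.64% of all probes passed. The Sqstm1 3′ probe alone reached 2-fold, against 2.96% of all probes, and the groups did not overlap for 4 probes, against 14.9%. The interaction asks whether LPS acted differently with and without cordycepin. It passed for none of the 10 probes, whereas 0.509% of all probes passed and 0.333% also reached 2-fold. None of the 10 had an unadjusted p under 0.05 for it, and the lowest was 0.0794 for Gclm. Without DMSO replicate 2, Srxn1 had an interaction of -0.83 (SE 0.20, unadjusted p = 0.000826, adjusted p = 0.0862) and the Sqstm1 coding probe one of -1.40 (SE 0.35, unadjusted p = 0.00135, adjusted p = 0.111). Again none of the 10 passed after the adjustment, and 0.620% of all probes did. The comparisons share arrays, so their counts are not independent.

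**Figure D2:**
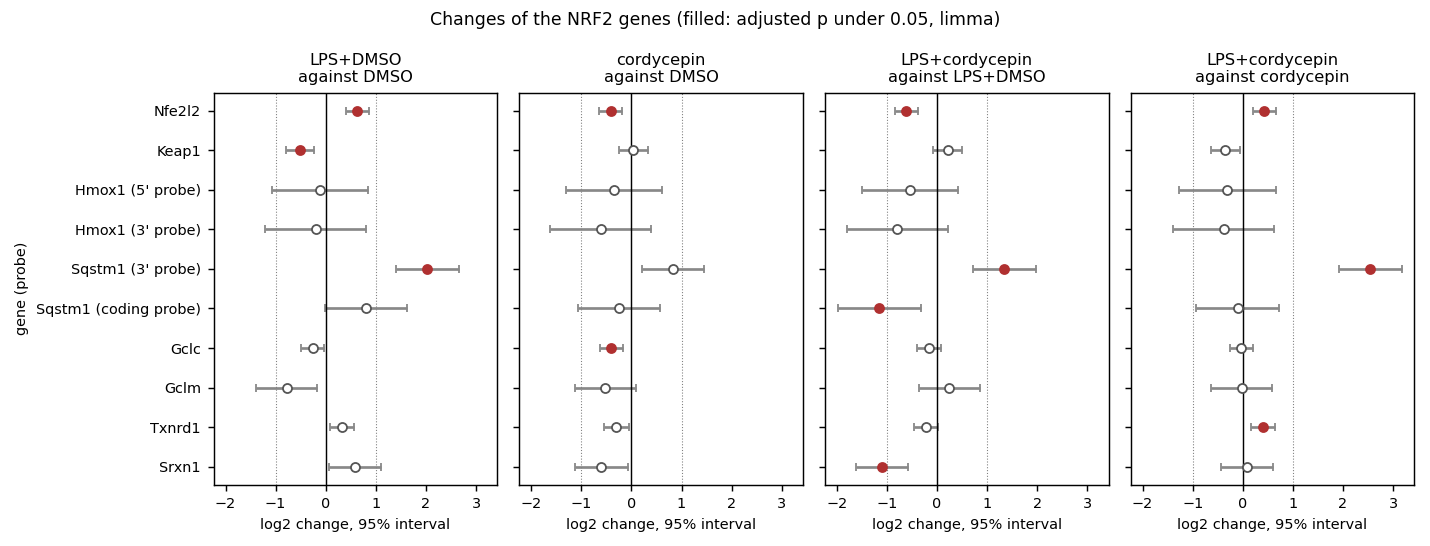
Log2 change with its 95% interval (x axis) for the 10 probes tested (y axis) in the 4 comparisons between conditions (panels); filled points passed an adjusted p under 0.05 and the dotted lines mark a 2-fold change. The probes of Sqstm1 lie on opposite sides of 0 in LPS+cordycepin against LPS+DMSO, at 1.34 and -1.16.

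Nfe2l2, the transcription factor itself, had the most regular pattern. Its signal was 12.98, 13.06, 13.16 and 13.19 in DMSO (replicates 1 to 4) and 13.61, 13.71, 13.82 and 13.77 in LPS+DMSO. In cordycepin it was 12.47, 12.77, 12.75 and 12.73, and in LPS+cordycepin it was 13.04, 13.41, 13.04 and 12.95. LPS+DMSO was the highest on every day and cordycepin the lowest, while LPS+cordycepin (mean 13.11) overlapped DMSO (mean 13.10). LPS raised Nfe2l2 by 0.63 (SE 0.11, 1.55-fold, adjusted p = 0.000731), and by 0.64 and 0.62 within the slide of replicates 1 and 2 and that of replicates 3 and 4. Cordycepin lowered it, with a change of -0.42 (SE 0.11, adjusted p = 0.0129) without LPS and of -0.62 (SE 0.11, adjusted p = 0.000472) with LPS. Within the slides the latter was -0.44 and -0.80. In cordycepin the rise with LPS was 0.43 (SE 0.11, adjusted p = 0.0217), and 0.60 and 0.25 within the slides. The difference between both LPS responses was -0.20 (95% interval -0.53 to 0.12). The change with cordycepin alone no longer passed without replicate number 1, 3 or 4 (adjusted p of 0.0708 or more). The change with LPS in cordycepin no longer passed without any 1 of the 4 replicate numbers, without cordycepin replicate 1 or without LPS+cordycepin replicate 2 (0.0538 to 0.132).

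Keap1, the adaptor that delivers NRF2 to a ubiquitin ligase, moved the other way with LPS. Its signal was 12.06, 12.32, 12.23 and 12.40 in DMSO and 11.75, 11.57, 12.08 and 11.53 in LPS+DMSO. It was 12.23, 12.29, 12.34 and 12.30 in cordycepin and 11.61, 12.00, 12.03 and 12.14 in LPS+cordycepin. Every LPS+DMSO array was below the DMSO array of its day, although the highest LPS+DMSO value overlapped the lowest of DMSO. The change was -0.52 (SE 0.13, adjusted p = 0.0153), with -0.53 and -0.50 within the slides. It no longer passed without replicate number 2 or 4, or without LPS+DMSO replicate 2 or 4 (adjusted p 0.0524 to 0.151). In cordycepin the change with LPS was -0.35 (95% interval -0.63 to -0.06, adjusted p = 0.158), with no overlap between the groups. Cordycepin alone gave 0.04 (95% interval -0.24 to 0.32).

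Sqstm1 read differently at its probes. At the 3′ probe the signal was 6.82, 8.41, 6.49 and 7.17 in DMSO and 9.45, 9.10, 9.06 and 9.39 in LPS+DMSO. It was 7.88, 8.01, 8.18 and 8.14 in cordycepin and 10.24, 10.59, 10.74 and 10.79 in LPS+cordycepin. The conditions followed each other without overlap, from cordycepin to LPS+DMSO to LPS+cordycepin, and DMSO lay lowest except for replicate 2, which was above all cordycepin arrays. LPS raised the 3′ probe by 2.03 (SE 0.29, 4.08-fold, adjusted p = 0.000167), and by 1.67 and 2.39 within the slides. In cordycepin LPS raised it by 2.54 (SE 0.29, 5.82-fold, adjusted p = 3.25e-05). Cordycepin raised it by a further 1.34 in LPS-treated cells (SE 0.29, 2.53-fold, adjusted p = 0.00326), in all 4 replicates and by 1.14 and 1.54 within the slides. Without LPS the difference between cordycepin and DMSO was 0.83 (SE 0.29, adjusted p = 0.0693). Without DMSO replicate 2 it was 1.22 (SE 0.17, adjusted p = 0.000111), and a rise of LPS+DMSO over DMSO of 2.42 was then measured.

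At the coding probe the same arrays gave another order. Its signal was 13.08, 15.01, 12.78 and 13.30 in DMSO and 14.39, 14.51, 14.16 and 14.34 in LPS+DMSO. It was 13.33, 13.43, 13.18 and 13.24 in cordycepin and 13.66, 13.81, 12.73 and 12.56 in LPS+cordycepin. LPS+DMSO lay above the cordycepin arrays and above LPS+cordycepin without overlap, and DMSO replicate 2 was the highest of the 16 arrays. Between LPS+DMSO and LPS+cordycepin the change was -1.16 (SE 0.39, 2.23-fold, adjusted p = 0.0464, or 0.0139 with the replicate day as a block). The slides differed in size, with -0.71 and -1.60. The call was lost without any 1 of the cordycepin or LPS+DMSO arrays, without DMSO replicate 4, without LPS+cordycepin replicate 3 or 4, or without replicate number 1, 3 or 4 (adjusted p 0.0559 to 0.250). The change stayed between -1.36 and -0.95 in all those fits. Without DMSO replicate 2 its adjusted p was 0.00214. The difference between LPS+DMSO and DMSO was 0.81 (95% interval -0.02 to 1.63, adjusted p = 0.207), and without DMSO replicate 2 a rise of 1.30 passed (SE 0.26, adjusted p = 0.00293). In cordycepin the change with LPS was -0.10 (95% interval -0.93 to 0.72). Cordycepin alone gave -0.25 (SE 0.39, adjusted p = 0.745), and 0.24 without DMSO replicate 2 (SE 0.26, adjusted p = 0.605). The difference between both LPS responses was -0.91 (95% interval -2.08 to 0.26) and did not pass, and it was -1.40 without DMSO replicate 2 (SE 0.35, adjusted p = 0.111).

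The gap between both Sqstm1 probes on the same array is free of any scaling of arrays, though not of the dim 3′ signal in DMSO. The 3′ minus coding difference was -6.26, -6.61, -6.29 and -6.13 in DMSO and -5.45, -5.42, -5.00 and -5.11 in cordycepin. It was -4.94, -5.41, -5.10 and -4.95 in LPS+DMSO and -3.42, -3.22, -1.99 and -1.77 in LPS+cordycepin. All DMSO arrays, replicate 2 included, lay below those of the other conditions, and all LPS+cordycepin arrays lay above. The difference was 1.22 larger in LPS+DMSO than in DMSO, 1.08 larger in cordycepin than in DMSO, 2.50 larger in LPS+cordycepin than in LPS+DMSO and 2.64 larger in LPS+cordycepin than in cordycepin. In each of these the groups did not overlap, and the two-sided exact permutation test gave its smallest possible p of 0.0286 (adjusted p = 0.0571 over 8 tests, n = 4 per group). After the adjustment none is therefore under 0.05. The same difference for Hmox1 ranged from 2.71 to 3.41 over the 16 arrays, and its groups overlapped in all 4 comparisons (lowest exact permutation p = 0.114, before adjustment). The Sqstm1 3′ probe was thus higher relative to the coding probe with either agent, without overlap, and the Hmox1 pair showed no such separation.

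**Figure D3:**
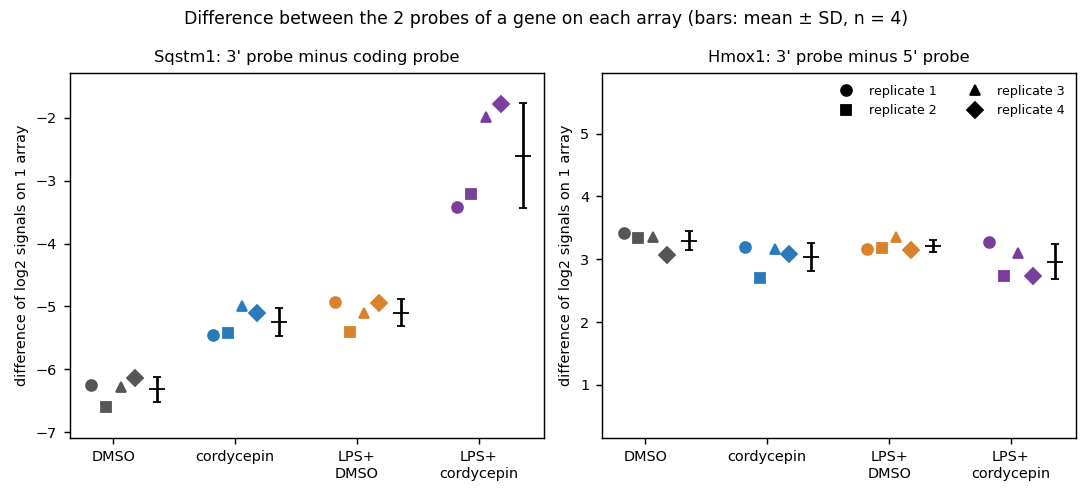
Difference of the log2 signals of 2 probes of a gene on each array (y axis, the same span in both panels) by condition (x axis), with mean and SD (n = 4). For Sqstm1 the LPS+cordycepin arrays lie at -3.42 to -1.77, above all others, whereas for Hmox1 the conditions overlap.

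Gclc and Gclm encode the catalytic and modifier subunits of the first enzyme of glutathione synthesis. Gclc signal was 12.27, 12.57, 12.54 and 12.60 in DMSO and 12.18, 11.97, 12.15 and 12.08 in cordycepin. It was between 12.03 and 12.41 in LPS+DMSO and between 11.87 and 12.21 in LPS+cordycepin. All cordycepin arrays were below all DMSO arrays. The change with cordycepin was -0.40 (SE 0.11, adjusted p = 0.0179), with -0.35 and -0.46 within the slides, and that in LPS-treated cells was -0.17 (95% interval -0.40 to 0.07). The change with cordycepin alone no longer passed without replicate number 2, 3 or 4, DMSO replicate 4 or cordycepin replicate 2 (adjusted p 0.0505 to 0.145). Gclm signal was 10.31, 12.07, 10.48 and 11.52 in DMSO, and the other 12 arrays lay between 10.08 and 10.74. The spread of the DMSO arrays thus exceeded any difference between the other conditions. No Gclm comparison passed, with -0.78 for LPS+DMSO against DMSO (SE 0.28, adjusted p = 0.0851). That change was -0.46 without DMSO replicate 2 (adjusted p = 0.206), -1.04 without DMSO replicate 1 (adjusted p = 0.0137) and -0.99 without DMSO replicate 3 (adjusted p = 0.0350).

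Txnrd1 and Srxn1 serve thiol repair, as the reductase of thioredoxin and the enzyme that restores over-oxidised peroxiredoxins. Srxn1 signal was 13.92, 15.57, 14.27 and 14.63 in DMSO and 14.96, 15.26, 15.29 and 15.23 in LPS+DMSO. It was 13.94, 14.16, 13.89 and 14.01 in cordycepin and 14.21, 14.14, 14.04 and 13.92 in LPS+cordycepin. The LPS+DMSO arrays stood above both cordycepin conditions with no overlap, and cordycepin and LPS+cordycepin overlapped. In LPS-treated cells cordycepin changed Srxn1 by -1.11 (SE 0.24, 2.15-fold, adjusted p = 0.00345), in all 4 replicates and by -0.94 and -1.28 within the slides. Without replicate number 4 the adjusted p was 0.0546, at a change of -1.04. Cordycepin alone changed Srxn1 by -0.60 (SE 0.24, adjusted p = 0.118). That change was -0.27 without DMSO replicate 2 (adjusted p = 0.245) and -0.82 without DMSO replicate 1 (adjusted p = 0.0201). LPS alone gave 0.59 (SE 0.24, adjusted p = 0.136), and without DMSO replicate 2 a rise of 0.91 passed (SE 0.14, adjusted p = 0.000492). In cordycepin the change with LPS was 0.08 (95% interval -0.44 to 0.60). The difference between both LPS responses was -0.51 (95% interval -1.25 to 0.23) and did not pass. It was -0.83 without DMSO replicate 2 (SE 0.20, adjusted p = 0.0862).

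Txnrd1 signal was 13.94, 13.89, 13.94 and 14.04 in DMSO and 13.59, 13.51, 13.76 and 13.76 in cordycepin. It was 14.03, 14.40, 14.25 and 14.44 in LPS+DMSO and 13.93, 13.84, 14.19 and 14.25 in LPS+cordycepin. Cordycepin arrays were below all others. With LPS in the presence of cordycepin Txnrd1 rose by 0.40 (SE 0.11, 1.32-fold, adjusted p = 0.0422). It no longer passed without any 1 of the replicate numbers or cordycepin arrays, DMSO replicate 1, 3 or 4, LPS+DMSO replicate 2 or 3, or LPS+cordycepin replicate 3 or 4 (adjusted p 0.0509 to 0.253). The change of 0.33 with LPS alone (adjusted p = 0.0682) and of -0.30 with cordycepin alone (adjusted p = 0.0925) passed when the replicate day was a block (adjusted p = 0.0311 and 0.0455). The fitted Txnrd1 changes had the signs of those of Nfe2l2 in the 4 comparisons, at smaller sizes.

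Hmox1, which degrades heme, passed in no comparison at either probe. At the 3′ probe the signal was 13.02, 14.55, 12.84 and 13.61 in DMSO and 13.01, 12.81, 12.85 and 12.90 in cordycepin. It was 13.35, 13.28, 13.28 and 13.32 in LPS+DMSO and 13.20, 13.04, 13.17 and 10.63 in LPS+cordycepin. Cordycepin and LPS+DMSO arrays lay close together within their groups, and the spread came from the DMSO arrays and from a single LPS+cordycepin array. At the 5′ probe the same arrays stood out, with 11.21 for DMSO replicate 2 and 7.89 for LPS+cordycepin replicate 4. The lowest adjusted p of the 4 comparisons was 0.307 for the 3′ probe, in LPS+cordycepin against LPS+DMSO, with a change of -0.80 (95% interval -1.81 to 0.21). Without DMSO replicate 2 and LPS+cordycepin replicate 4 that change was -0.17 (SE 0.14, adjusted p = 0.458), and the change with LPS alone was 0.15 (SE 0.14, adjusted p = 0.568). Nqo1, a quinone reductase, was well above background on 1 DMSO, 2 cordycepin, 0 LPS+DMSO and 2 LPS+cordycepin arrays. It was not tested, and its signals spanned 2.80 to 6.65 with overlap in all comparisons.

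**Figure D4:**
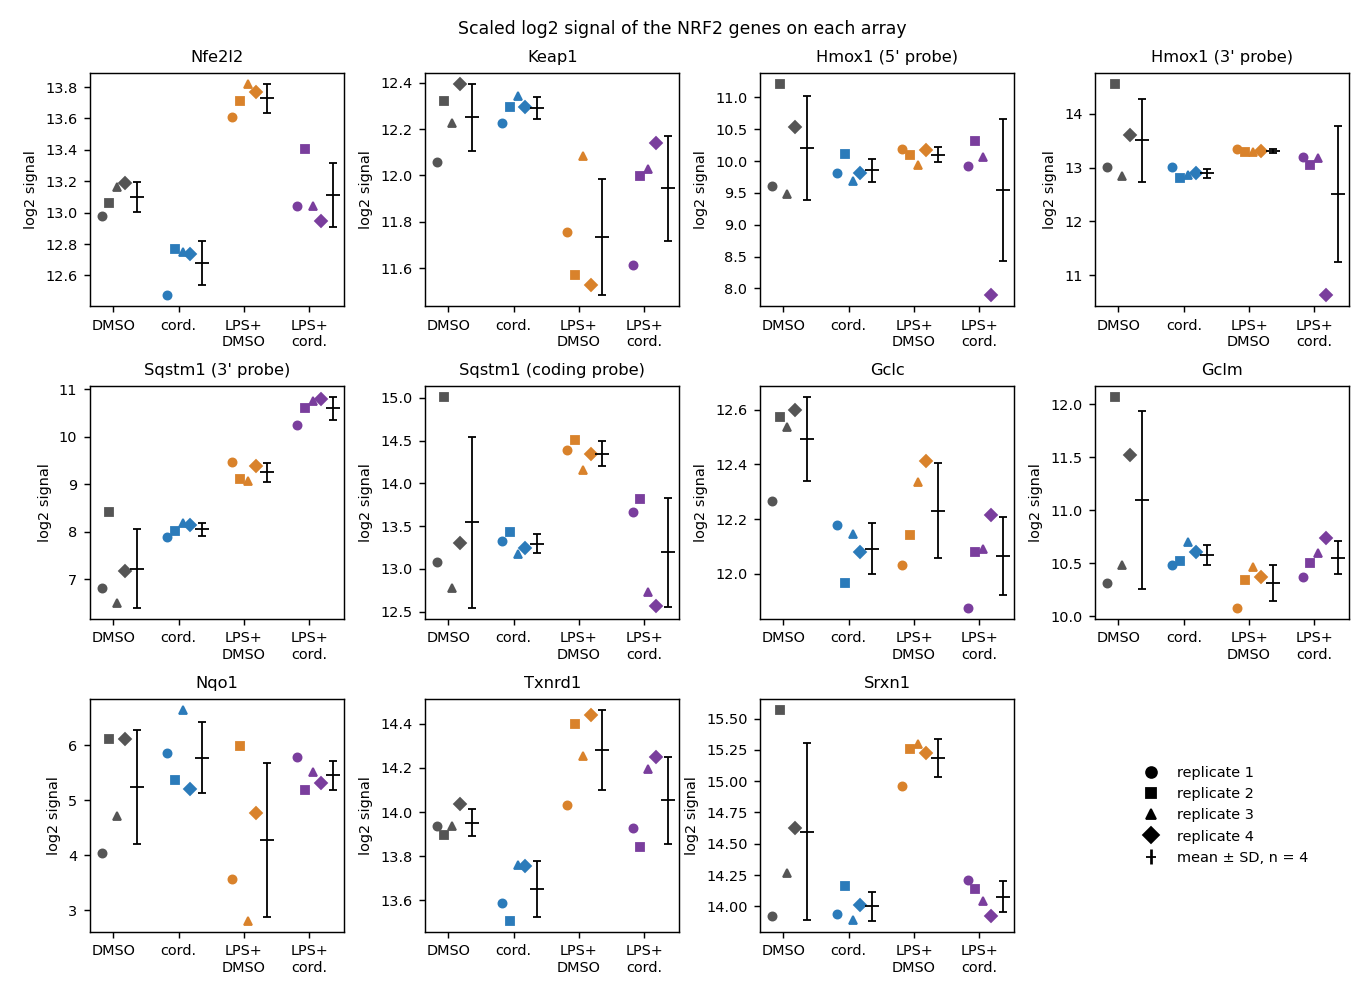
Scaled log2 signal (y axis, a different span in each panel) of the 11 probes on the 16 arrays by condition (x axis; cord., cordycepin), with mean and SD (n = 4). Nfe2l2 separates LPS+DMSO (13.61 to 13.82) from the rest, and DMSO replicate 2 (grey square) is high for Hmox1, Sqstm1, Gclm and Srxn1.

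Over the 16 arrays the Sqstm1 coding probe followed Srxn1 (Pearson's r = 0.87), and Nfe2l2 followed Txnrd1 (r = 0.77) and Srxn1 (r = 0.75), whereas r was -0.64 for Nfe2l2 and Keap1. The Hmox1 probes correlated at 0.96, and the Sqstm1 probes at 0.12. These arrays share conditions, days and slides, so the values only describe likeness. DMSO replicate 2 was the highest of the 16 arrays for the Sqstm1 coding probe, Srxn1 and both Hmox1 probes. LPS+cordycepin replicate 4 was the lowest for both Hmox1 probes. Correlations without these arrays were not computed. Among 11562 genes the most alike to the Sqstm1 coding probe were Mapkapk5 (r = 0.90), Blcap (r = 0.89) and Itsn1 (r = 0.89), and to the Hmox1 3′ probe Atg101 (r = 0.89), Rnf25 (r = 0.89) and Thg1l (r = 0.88).

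The partners and regulators of NRF2 include the small MAF proteins that bind DNA with it, the repressor BACH1 and ubiquitin ligase subunits. Each gene was read at its brightest probe, and 14 of 16 were tested. In the counts and shares of this and the following lists, genes that rose or fell passed an adjusted p under 0.05 (limma) in that direction. With LPS 2 rose (5.25% of all 11614 genes did) and 1 fell (9.48%). With cordycepin 1 rose (6.09%) and 3 fell (9.51%), and in LPS+cordycepin against LPS+DMSO 1 rose (8.63%) and 3 fell (9.97%). In LPS+cordycepin against cordycepin 2 rose (3.71%) and 1 fell (4.13%). Maff, a small MAF gene, went from a mean of 7.57 (SD 0.38) in DMSO to 12.41 (SD 0.07) in LPS+DMSO, and from 7.44 (SD 0.18) in cordycepin to 11.85 (SD 0.35) in LPS+cordycepin. This was a rise of 4.84 (SE 0.19, adjusted p = 1.17e-10) and of 4.41 (SE 0.19, adjusted p = 4.27e-10). Its change of -0.56 between both LPS conditions passed (adjusted p = 0.0427) but not with the replicate day as a block (0.0676). Btrc, a subunit of a ligase that acts on NRF2 apart from KEAP1, rose with cordycepin by 1.45 without LPS (SE 0.11, adjusted p = 2.96e-07) and by 1.58 with LPS (SE 0.11, adjusted p = 7.79e-08). Bach1 was lower in each of the 4 comparisons, by changes of -0.47, -0.59, -0.49 and -0.37 in the order above (adjusted p 0.000635 to 0.0388). Syvn1, another ligase gene, fell at its brightest probe with cordycepin (-0.40 and -0.53, without and with LPS), while its other probe gave 1.05 and 2.15.

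Of 52 other NRF2 targets, 49 were on the array and 42 were tested. None passed an adjusted p under 0.05 upwards in any of the 4 comparisons. Of all genes 5.25%, 6.09%, 8.63% and 3.71% did, in the order above. With LPS 4 fell, with cordycepin 3, in LPS+cordycepin against LPS+DMSO 1 and in LPS+cordycepin against cordycepin 1, against the shares of falling genes given above. Gpx2, a glutathione peroxidase, was the only one past 2-fold, from 7.20 (SD 0.44) in DMSO to 5.02 (SD 0.77) in LPS+DMSO and from 6.58 (SD 0.41) in cordycepin to 4.57 (SD 0.27) in LPS+cordycepin. It was well above background on 4, 2, 3 and 1 of the 4 arrays of these conditions, so the changes of -2.18 and -2.01 rest partly on signals that were not well above background. With each array's signal raised to at least the lowest one well above background on it, they were -1.52 and -1.11. The iron exporter Slc40a1 fell by 0.83 with LPS and by 1.00 with cordycepin, and the cystine transporter Slc7a11 fell by 0.73 with cordycepin (adjusted p = 0.0255). Osgin1 fell by 0.77 in LPS+cordycepin against LPS+DMSO (adjusted p = 0.0103). The median change of the list was -0.25 with LPS, against -0.05 over all genes, and -0.05, 0.13 and -0.02 in the other comparisons. DMSO replicate 2 was the highest DMSO array for 24 of the 42 (57.1%), and for 35.6% of all probes that passed the filter. Without it the median change with LPS was -0.21, against -0.06 over all genes. In that fit 3, 2, 2 and 1 of the 42 fell in the 4 comparisons, against 1173, 1148, 1344 and 619 of all 11614 genes.

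The partners of p62 in autophagy and signalling (24 of 25 tested) held no call past 2-fold. With LPS none rose (5.25% of all genes did) and 3 of the 24 fell (9.48%), and with cordycepin 1 rose (6.09%) and 4 fell (9.51%). In LPS+cordycepin against LPS+DMSO 2 rose (8.63%) and 4 fell (9.97%), and in LPS+cordycepin against cordycepin none rose (3.71%) and 1 fell (4.13%). Leaving out DMSO replicate 2, the counts that fell were 2, 3, 4 and 1, and those that rose 0, 1, 3 and 0. Of all 11614 genes 1173, 1148, 1344 and 619 fell in that fit, and 636, 718, 1166 and 526 rose. Atg16l1, which helps attach LC3 to membranes, fell with cordycepin by 0.84 without LPS and by 0.89 with LPS (SE 0.09, adjusted p = 9.76e-06 and 3.80e-06). Atg12, a part of the same machinery, fell in all 4 comparisons by 0.46 to 0.61. Cyld, a deubiquitinase that works with p62, rose with cordycepin by 0.64 and 0.82. Map1lc3b, the LC3 gene, rose by 0.49 in LPS+cordycepin against LPS+DMSO (adjusted p = 0.0473), and Gabarapl1 of the same family fell by 0.45 (adjusted p = 0.0218).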

How the data were processed

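Labels gave each array its condition, and day by replicate number. The authors deposited, per array, spot intensity from Agilent Feature Extraction 10.10.1.1, background-subtracted and not normalized between arrays, and a table of log2 values, normalized by a method not given in the sources used here, which served as an alternative. The labelling kit primes on poly(A) tails, and the part of this in the results was not tested. Intensity was log2-transformed, outlier spots left out, spots of a probe averaged, and arrays scaled to the 75th percentile of the 18148 probes that the scanner software flagged as clearly above background on every array. The 21598 probes so flagged throughout at least 1 condition were fitted with limma 3.58.1 (R 4.3.3), with Benjamini-Hochberg adjustment over all of them. A call needed a 2-fold or larger change with an adjusted p under 0.05. On simulated data for LPS+cordycepin against LPS+DMSO, 184 of 200 probes changed by 1.5 (log2) among 21598 were recovered (92%), with 1 false call. The simulated noise was normal and independent between arrays, without shared days or slides and without arrays that stood apart. Most changes of the 9 genes were smaller than 1.5, so this recovery does not apply to them. Arrays show no count of molecules, so the number of arrays limits precision. All 9 genes are accounted for. In the 3 gene lists, called genes and some others, chosen after their values were seen, are named. One marker gene is not reported here. The 9 genes and the lists were chosen with earlier results of these data known. The permutation test on probe pairs (scipy 1.17.1) was added after the values were seen. Residuals of arrays of the same day correlated by a mean of 0.19 (20 of 24 pairs over 0.1), those of another day on the same slide by 0.17 and those of other slides by -0.18. Alternatives covered scaling, background, filters, probes, blocks, thresholds and left-out arrays.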

Additional observations from a re-analysis of the deposited data

Results flagged for a closer look

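For 3 probes and conditions, 1 of the 4 arrays lay far from the others relative to the range of the group. Nfe2l2 in cordycepin was 12.47 on replicate 1, against 12.73 to 12.77 on the other 3. Hmox1 in LPS+cordycepin was 7.89 on replicate 4 at the 5′ probe, against 9.92 to 10.31, and 10.63 at the 3′ probe, against 13.04 to 13.20. Of 44 groups examined, chance alone would flag about 1 in 20, or 2.2. DMSO replicate 2 did not pass this criterion, as replicate 4 often lay between it and the rest.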

How the results depend on the processing

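The number of genes with a called probe was 1 in LPS+DMSO against DMSO, 0 in cordycepin against DMSO, 2 in LPS+cordycepin against LPS+DMSO and 1 in LPS+cordycepin against cordycepin. With only the brightest probe of each gene the first and the last were 0, with only slide 1 the first and the third were 0, and with only slide 2 the second was 1. With the mean of a gene's probes the third was 1. Without a minimum fold they were 3, 2, 3 and 3, and with 1.5-fold the first was 2. Leaving out arrays or replicates gave 1 to 2, 0 to 1, 1 to 2 and 1 to 1. The interaction stayed at 0 in every setting run. The replicate block gave 1, 0, 2, 1 and 0 and ended none of the 12 changes of the 9 genes past the adjusted p. It added only the 2 passes of Txnrd1 given above, neither of which reached 2-fold. Slide as a block ended none either. Leaving out DMSO replicate 2 and LPS+cordycepin replicate 4, chosen after seeing the data, gave 1, 1, 2, 1 and 0. The mean of both Sqstm1 probes turned the coding probe's -1.16 in LPS+cordycepin against LPS+DMSO into 0.092 (adjusted p = 0.900), by construction. No other direction among those 12 changes was reversed. With scaling to spiked-in controls the median change of all probes was -0.13, 0.11, -0.12 and -0.36 in the 4 comparisons, in place of -0.04, 0.04, 0.04 and -0.04, and this scaling ended 8 of the 12 passes, no filter on dim probes, with more probes tested, ended 6, and slide 1 alone, with fewer arrays, ended 11. The cause of the loss with spiked-in scaling was not tested.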
